A study of Mus musculus with 12 samples.

Results

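The genes described here encode the proteins of the small nucleolar ribonucleoproteins (snoRNPs) of the box C/D and box H/ACA classes. They are 10 of the 18164 genes measured, and 17 of the 44937 probe sets of the array: Dkc1, Gar1, Nhp2 and Nop10 of the H/ACA particle, Naf1 and Shq1 of its assembly, and Fbl, Nop56, Nop58 and Nhp2l1 of the C/D particle. They were chosen by name, as every probe set that the platform annotation assigns to one of these symbols, and not by a measured value. Earlier results of these data were, however, known when the genes were chosen. Each gene is represented by its brightest probe set, that with the highest mean over the 12 arrays, and the other probe sets are given beside it. By this measure all 10 genes lay in the upper part of the array, above the median probe set.

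Small nucleolar RNAs pair with ribosomal and spliceosomal RNAs and guide the modification of single nucleotides. Box H/ACA RNAs guide pseudouridylation, which is carried out by dyskerin, and box C/D RNAs guide methylation of the ribose, which is carried out by fibrillarin. The H/ACA proteins also form part of telomerase, and both classes of particle take part in the making of ribosomes, which the mouse embryo resumes as its own genome becomes active around the 2-cell stage.

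Gene expression was measured on 12 arrays, 3 in each of 4 groups: Oct4-MO embryos, the uninjected embryos of the Oct4 experiment, Ccna2-MO embryos and those left uninjected in the Ccna2 experiment. Antisense morpholino oligonucleotides (MO) against the start site of translation of Oct4 or against the 5' UTR of Ccna2 were injected into the cytoplasm of 1-cell embryos, at 0.6 mM according to the sample labels. All embryos came from wild type F1 (C57BL6xDBA/2) females 3 to 5 weeks old that had mated with wild type males, and were cultured to the 2-cell stage. Each array held a pool of 20 embryos, collected from 3 to 6 females, and RNA worth 10 embryos went through 2 rounds of amplification. The uninjected pools were drawn from the embryos collected for the injected pools and were cultured beside them without injection, so the injection itself and the loss of the targeted protein cannot be told apart on these arrays. A morpholino blocks translation and need not change the level of its target, so the transcript is no test of the knockdown. Pou5f1, which encodes Oct4, had an intensity of 2193 ± 331 in Oct4-MO embryos against 1923 ± 166 in uninjected ones, and Ccna2 had 3595 ± 695 in Ccna2-MO embryos against 3871 ± 394 in uninjected ones (SD, 3 pools a group).

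Values are linear array intensities after the authors' dChip normalization. The median of an array was 22.7 to 25.5, and 39.3 to 42.7% of its probe sets lay under 16. Here 16 was added to each value before log2 was taken, so fold changes of dim probe sets come out too small. Of 7 measured marker genes of the oocyte and 2-cell embryo, 6 were above 100 on every array, with sums of 13339 to 14850 in Oct4-MO embryos, 14183 to 14493 in their controls, 14959 to 16900 in Ccna2-MO embryos and 15540 to 16418 in their controls. The 9 measured cumulus cell markers summed to 607 to 838 in Oct4-MO embryos and 632 to 692 in their controls, and to 599.7 to 1388 in Ccna2-MO embryos and 698 to 1129 in their controls, with 1 above 100 on every array. Among them Cyp11a1 had 331 ± 97.9 in Oct4-MO embryos against 131 ± 41.3 in their controls. It had 216 ± 35.0 in Ccna2-MO embryos against 82 ± 86.3 in theirs (SD). Amhr2, the marker above 100 on every array, went the other way, at 305 ± 151 in Oct4-MO embryos against 419 ± 62.5 in their controls. In Ccna2-MO embryos Amhr2 had 573 ± 402 against 707 ± 239 in their controls. Of the 9, 4 had a log2 fold change below 0 in Oct4-MO embryos and 3 in Ccna2-MO embryos. The 8 sperm markers summed to 343 to 381 in Oct4-MO embryos against 257 to 309 in their controls, and to 246 to 322 in Ccna2-MO embryos against 217 to 263 in theirs. The 5 blood markers summed to 73.9 to 161 in Oct4-MO embryos against 54.9 to 83.8 in their controls, and to 86.3 to 225 in Ccna2-MO embryos against 52.1 to 93.9 in theirs. The sums of sperm markers did not overlap between Oct4-MO embryos and their controls. Prm1 made up most of these sums, at 233 ± 24.9 in Oct4-MO embryos against 160 ± 21.4 in their controls. Prm2 went the other way, at 18.5 ± 3.28 against 33.4 ± 9.66, and 3 of the 8 had a log2 fold change below 0. The part of other cells in the values below was not tested. With 3 pools a group, the p-values reflect no more than the spread among these pools.

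In Ccna2-MO embryos 9 of the 10 snoRNP protein genes had a log2 fold change below 0, against 46.8% of all genes. In Oct4-MO embryos 8 of 10 did, against 48.5% of all genes. The median of the 10 genes was -0.68 in Ccna2-MO embryos, where the median of all 18164 genes was 0.03, and -0.28 in Oct4-MO embryos, where that of all genes was 0.01. The size of the median in Oct4-MO embryos depended on single arrays, with -0.15 without Oct4-MO replicate 2 and -0.43 without Oct4-MO replicate 1. Single genes seldom passed the test. At a Benjamini-Hochberg adjusted p under 0.05 from limma, 1 of 10 passed in Ccna2-MO embryos (Gar1, which was lower; 0.93% of all genes passed in either direction) and 0 of 10 in Oct4-MO embryos (0.0936% of all genes). At an unadjusted p under 0.05, 7 of 10 were lower in Ccna2-MO embryos (Dkc1, Gar1, Nop10, Naf1, Fbl, Nop58 and Nhp2l1), against 8.51% of all genes, and 3 of 10 in Oct4-MO embryos (Dkc1, Naf1 and Fbl), against 5.96% of all genes. This last count was 1 without Oct4-MO replicate 2 or 3 or without replicate 1 or 3 of their controls, and 6 without Oct4-MO replicate 1. The share of all genes was not counted with these arrays left out. None of the 10 was higher at that level in either knockdown. Since a pool is measured as a whole, fewer cells holding a transcript and less of it per cell cannot be told apart.

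When both differences were averaged, each with its own controls, 3 of 10 genes passed at an adjusted p under 0.05, and all were lower: Dkc1, Gar1 and Fbl, where 3.22% of all genes passed in either direction. At an unadjusted p under 0.05, 6 of 10 were lower in this mean (with Naf1, Nop58 and Nhp2l1), against 10.2% of all genes. The 3 pools of an experiment did not move alike in size. In the Oct4 experiment the median difference of the 10 genes between an injected pool and the uninjected pool of its number was -0.03, -0.39 and -0.54 for pools 1, 2 and 3, and in the Ccna2 experiment it was -0.62, -0.78 and -0.49. In pool 1 of the Oct4 experiment the genes went both ways, with -0.69 for Dkc1, -0.55 for Naf1 and -0.32 for Fbl but 0.74 for Nop10 and 0.66 for Shq1.

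**Figure D1:**
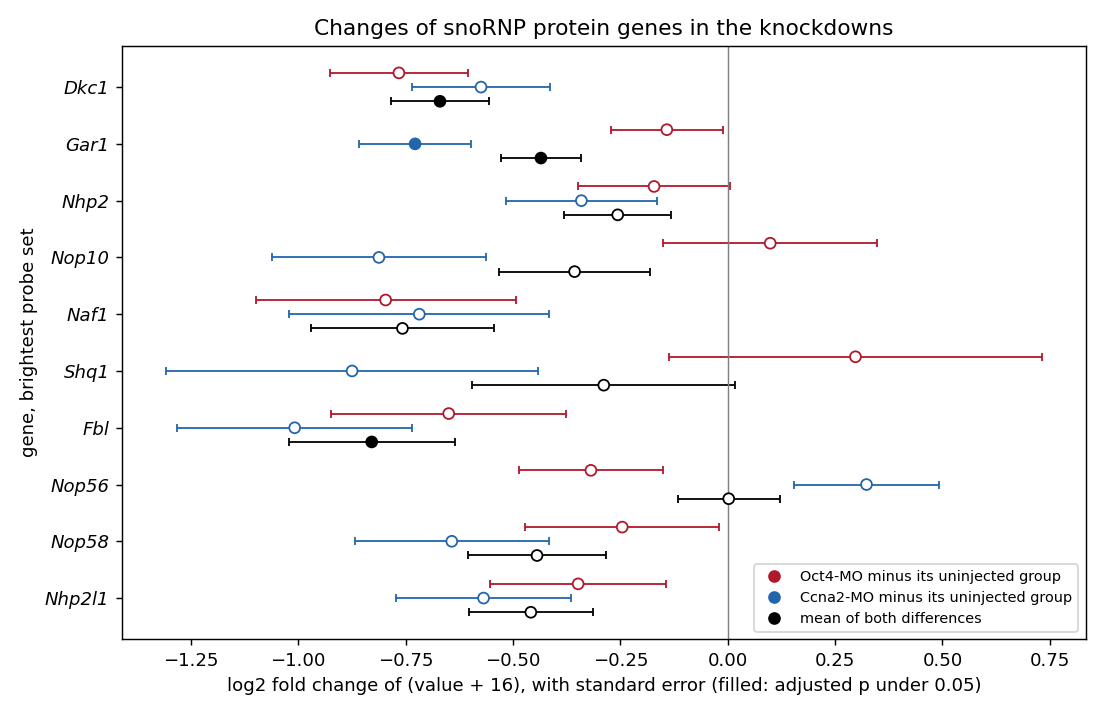
Log2 fold changes of the 10 snoRNP protein genes (horizontal axis, log2 of value + 16) with their standard errors, in Oct4-MO embryos (red), in Ccna2-MO embryos (blue), each against its own uninjected group, and for the mean of both (black). Filled points passed an adjusted p under 0.05: Gar1 in Ccna2-MO embryos, and Dkc1, Gar1 and Fbl in the mean, while Nop56 lies at 0.32 in Ccna2-MO embryos (0.19 without Ccna2-MO replicate 3) and at -0.32 in Oct4-MO embryos (-0.11 without Oct4-MO replicate 2).

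Dkc1 encodes dyskerin, the pseudouridine synthase of the H/ACA particle. Its intensity was 1425, 1570.4 and 1471 in Oct4-MO embryos, against 2308, 2392 and 2968 in their uninjected controls. It was 1499, 1458 and 2194 in Ccna2-MO embryos, against 2288, 2852 and 2449.8 in their uninjected controls. Every injected pool of an experiment was below every control pool, although pool 3 of Ccna2-MO embryos came near its controls. The log2 fold change was -0.77 in Oct4-MO embryos (standard error 0.16, adjusted p = 0.122 from limma) and -0.57 in Ccna2-MO embryos (standard error 0.16, adjusted p = 0.122). In the mean of both it fell by 0.67 (standard error 0.11, adjusted p = 0.0143), and it still passed when any 1 of the 12 arrays was left out, with adjusted p up to 0.0494. Without Ccna2-MO replicate 3 it also passed in Ccna2-MO embryos alone, with a log2 fold change of -0.76 (adjusted p = 0.0303). In Oct4-MO embryos alone its adjusted p was 0.0241 with all 6 uninjected arrays as controls, 0.0429 with array weights and 0.0497 with the mean of its probe sets.

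Dkc1 had 3 probe sets, more than any other of the 10 genes. The second had 663, 886 and 893 in Oct4-MO embryos, against 1434, 1361 and 1572 in their controls, and 1277, 1104 and 1289 in Ccna2-MO embryos, against 1456, 1492 and 1452 in theirs. The third had 583, 682 and 555 in Oct4-MO embryos, against 1064, 882 and 1037 in their controls, and 393, 775 and 604 in Ccna2-MO embryos, against 1023, 1097 and 849 in theirs. All 3 were thus lower without overlap in both experiments. Their log2 fold changes were -0.77, -0.84 and -0.70 in Oct4-MO embryos and -0.57, -0.26 and -0.77 in Ccna2-MO embryos, and in the mean of both each of the 3 passed, with adjusted p of 0.0143, 0.0197 and 0.0353. In the uninjected groups the levels of Dkc1 were almost the same, with a difference of 0.01 on the log2 scale (adjusted p = 0.989).

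**Figure D2:**
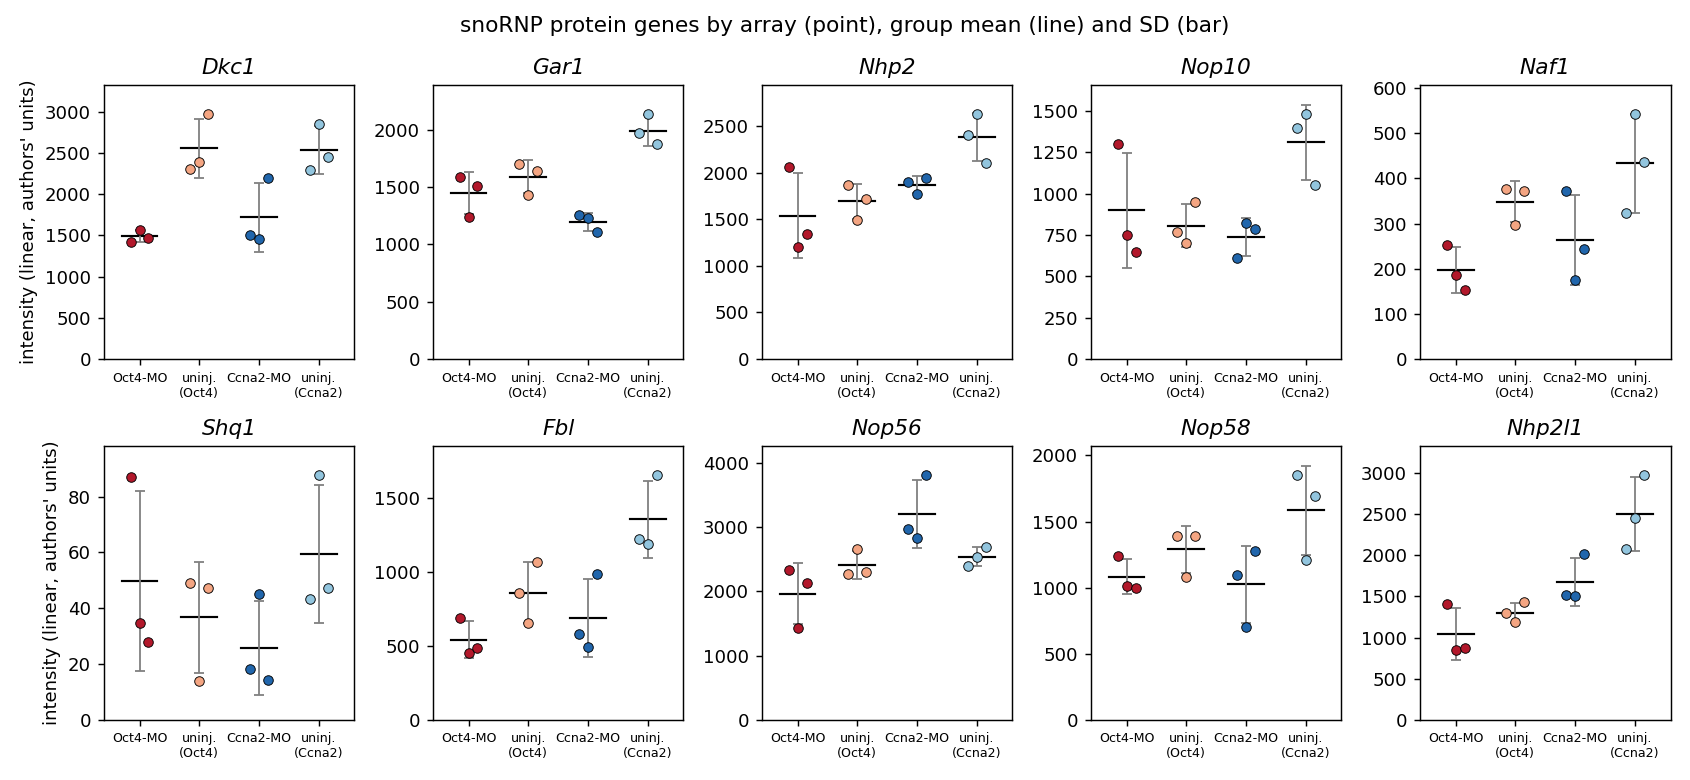
Intensity (vertical axis, linear, a scale of its own for each gene) of the brightest probe set of the 10 genes on each of the 12 arrays; points are pools, lines are group means and bars are 1 SD (n = 3). The groups run from Oct4-MO embryos and their uninjected controls to Ccna2-MO embryos and theirs; Dkc1 shows both injected groups below both uninjected groups, and Gar1 shows the 3 pools of Ccna2-MO embryos at 1105 to 1258, below all of their uninjected pools.

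Gar1, a core protein of the H/ACA particle that replaces Naf1 when the particle matures, was the gene that passed in a single knockdown. Its intensity was 1258, 1227 and 1105 in Ccna2-MO embryos, against 1968, 2134 and 1874 in their uninjected controls. The 3 injected pools lay close together and far below the controls. In Ccna2-MO embryos Gar1 fell by 0.73 in log2 units (standard error 0.13, adjusted p = 0.0328 from limma). In Oct4-MO embryos it had 1588, 1237 and 1509, against 1704, 1427 and 1641 in their controls, and these groups overlapped. The log2 fold change there was -0.14 (standard error 0.13, adjusted p = 0.831), and the difference between its changes in Oct4-MO and Ccna2-MO embryos was 0.59 (standard error 0.18, adjusted p = 0.638). The control pools of the Ccna2 experiment were themselves above those of the Oct4 experiment. With all 6 uninjected arrays as controls the log2 fold change of Gar1 in Ccna2-MO embryos was -0.57 (adjusted p = 0.0721). It missed the threshold without any 1 of 7 arrays, in Ccna2-MO embryos: replicates 1, 2 and 3 of their controls (adjusted p = 0.12, 0.0824 and 0.0749), Ccna2-MO replicate 2 (0.0877), Oct4-MO replicate 3 (0.0501), and replicates 1 and 3 of the controls of the Oct4 experiment (0.055 and 0.0603). In the mean of both knockdowns Gar1 fell by 0.43 (standard error 0.09, adjusted p = 0.0327). That call was lost without Oct4-MO replicate 2 or 3 (adjusted p = 0.074 and 0.067), Ccna2-MO replicate 2 (0.0567), replicate 1 or 3 of the controls of the Oct4 experiment (0.105 and 0.097), or replicate 1, 2 or 3 of those of the Ccna2 experiment (0.0735, 0.0672 and 0.0625). With no intensity trend Gar1 had adjusted p of 0.0556 in Ccna2-MO embryos and 0.0589 in the mean.

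Nhp2 and Nop10 complete the core of the H/ACA particle. Nhp2 had 2058, 1206 and 1347 in Oct4-MO embryos, against 1864, 1495 and 1721 in their controls. It had 1901, 1774 and 1944 in Ccna2-MO embryos, against 2410.5, 2629 and 2111 in theirs, where the groups did not overlap. The log2 fold change of Nhp2 was -0.17 in Oct4-MO embryos (adjusted p = 0.858) and -0.34 in Ccna2-MO embryos (adjusted p = 0.42). With all 6 uninjected arrays as controls, Nhp2 had -0.096 in Ccna2-MO embryos (adjusted p = 0.871 from limma). Its dimmer probe set had 380.2, 193 and 201 in Oct4-MO embryos, against 259, 198 and 191 in their controls, a log2 fold change of the other sign (0.19, adjusted p = 0.927).

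Nop10 had 1298, 748 and 650.2 in Oct4-MO embryos, against 769.9, 699.7 and 952 in their controls. It had 609, 820 and 784 in Ccna2-MO embryos, against 1398, 1479.9 and 1053 in theirs. Pool 1 of Oct4-MO embryos was the only one above its controls, and the pools of Ccna2-MO embryos all lay below theirs. This gave a log2 fold change of 0.10 in Oct4-MO embryos (standard error 0.25, adjusted p = 0.96) and -0.81 in Ccna2-MO embryos (standard error 0.25, adjusted p = 0.154). Without Oct4-MO replicate 1 the value in Oct4-MO embryos was -0.19. Its second probe set gave -0.70 in Oct4-MO embryos (adjusted p = 0.634) and -0.57 in Ccna2-MO embryos (adjusted p = 0.55), so the probe sets of Nop10 differed in sign in Oct4-MO embryos.

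Naf1 and Shq1 act before the mature particle is formed: Shq1 holds newly made dyskerin, and Naf1 takes the place that Gar1 fills later. Naf1 had 252, 185 and 152 in Oct4-MO embryos, against 375, 296 and 373 in their controls, with no overlap. It had 371, 176 and 243 in Ccna2-MO embryos, against 323, 542 and 437 in theirs, where pool 1 of Ccna2-MO embryos lay above the lowest control. On the log2 scale its change was -0.80 in Oct4-MO embryos (standard error 0.30, adjusted p = 0.432) and -0.72 in Ccna2-MO embryos (standard error 0.30, adjusted p = 0.307). In the mean of both, the difference of -0.76 (standard error 0.21) missed the threshold, with an adjusted p of 0.0896, and passed it without Ccna2-MO replicate 1 (adjusted p = 0.0439).

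Shq1 was dim. It had 86.8, 34.6 and 27.8 in Oct4-MO embryos, against 49.2, 13.7 and 47.3 in their controls, and 18.1, 45.0 and 14.3 in Ccna2-MO embryos, against 43.2, 87.7 and 47.2 in theirs. The pools of a group differed by up to several fold, and the groups overlapped in both experiments. Its log2 fold change was 0.30 in Oct4-MO embryos (standard error 0.43, adjusted p = 0.919) and -0.87 in Ccna2-MO embryos (standard error 0.43, adjusted p = 0.396). The sign in Oct4-MO embryos rested on single arrays, with -0.078 without Oct4-MO replicate 1 and -0.073 without replicate 2 of their controls.

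Fbl encodes fibrillarin, the methyltransferase of the C/D particle. Its intensity was 684, 450.3 and 486 in Oct4-MO embryos, against 856, 654 and 1068 in their controls. It was 583, 495 and 983 in Ccna2-MO embryos, against 1220.0, 1189 and 1652 in theirs. In Oct4-MO embryos pool 1 overlapped the lowest control, and in Ccna2-MO embryos every pool was below every control, pool 3 least so. The log2 fold change was -0.65 in Oct4-MO embryos (standard error 0.27, adjusted p = 0.491) and -1.01 in Ccna2-MO embryos (standard error 0.27, adjusted p = 0.111). In the mean of both, Fbl fell by 0.83 in log2 units (standard error 0.19, adjusted p = 0.0457). The dimmer probe set of Fbl had -0.67 in Oct4-MO embryos and -0.90 in Ccna2-MO embryos, and its mean of -0.79 missed the threshold (adjusted p = 0.0585). Without Ccna2-MO replicate 3, Fbl passed in Ccna2-MO embryos alone, with a log2 fold change of -1.29 (adjusted p = 0.0385). Its call in the mean was lost without Oct4-MO replicate 2 or 3 (adjusted p = 0.11 and 0.104), Ccna2-MO replicate 1 or 2 (0.0741 and 0.0977), replicate 1 or 3 of the controls of the Oct4 experiment (0.118 and 0.124), or replicate 1, 2 or 3 of those of the Ccna2 experiment (0.0848, 0.0663 and 0.113). It was also lost with log2(value + 64) (adjusted p = 0.0517) and with no intensity trend (0.0627).

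Nop56 and Nop58 are related proteins that form the scaffold of the C/D particle. Nop56 was the only gene of the 10 with a log2 fold change above 0 in Ccna2-MO embryos. It had 2332, 1437 and 2134 in Oct4-MO embryos, against 2264, 2667 and 2309 in their controls. It had 2979.7, 2833 and 3814 in Ccna2-MO embryos, against 2397, 2543 and 2686 in theirs. The groups overlapped in the Oct4 experiment, where pool 2 of Oct4-MO embryos was lowest, while all 3 pools of Ccna2-MO embryos were above their controls. This gave a log2 fold change of -0.32 in Oct4-MO embryos (standard error 0.17, adjusted p = 0.62) and 0.32 in Ccna2-MO embryos (standard error 0.17, adjusted p = 0.423). Without Oct4-MO replicate 2 the value in Oct4-MO embryos was -0.11, and without Ccna2-MO replicate 3 that in Ccna2-MO embryos was 0.19. The difference between these changes was -0.64 (standard error 0.24, adjusted p = 0.691). Its second probe set had the same signs, with -0.38 in Oct4-MO embryos and 0.24 in Ccna2-MO embryos, and a difference of -0.61 (adjusted p = 0.723).

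Nop58 had 1238, 1011 and 999 in Oct4-MO embryos, against 1392, 1080.3 and 1394 in their controls. It had 1094, 702 and 1277 in Ccna2-MO embryos, against 1852, 1209 and 1696 in theirs, and the groups overlapped in both experiments. On the log2 scale its change was -0.25 in Oct4-MO embryos (adjusted p = 0.832) and -0.64 in Ccna2-MO embryos (adjusted p = 0.214).

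Nhp2l1, now named Snu13, binds the kink-turn of box C/D RNAs and also that of U4 snRNA in the spliceosome. The annotation gives its probe sets a second gene, LOC100862468, so its values may be shared between the genes. It had 1410.3, 853 and 875 in Oct4-MO embryos, against 1297, 1184 and 1428 in their controls, and 1514, 1510.3 and 2016 in Ccna2-MO embryos, against 2072, 2459 and 2976 in theirs. The pools of Ccna2-MO embryos were all below their controls, whereas pool 1 of Oct4-MO embryos lay within the range of its controls. The same Ccna2-MO pools were all above the uninjected pools of the Oct4 experiment. With all 6 uninjected arrays as controls, Nhp2l1 had a log2 fold change of -0.11 in Ccna2-MO embryos (adjusted p = 0.908 from limma). Its log2 fold change was -0.35 in Oct4-MO embryos (adjusted p = 0.672) and -0.57 in Ccna2-MO embryos (adjusted p = 0.226), and -0.35 and -0.37 at its other probe set. In the mean of both, the difference of -0.46 missed the threshold (adjusted p = 0.129) and passed it without Oct4-MO replicate 1 (adjusted p = 0.0329). Without Nhp2l1, the counts at an unadjusted p under 0.05 were 6 of the 9 other genes in Ccna2-MO embryos and 5 of 9 in the mean.

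**Figure D3:**
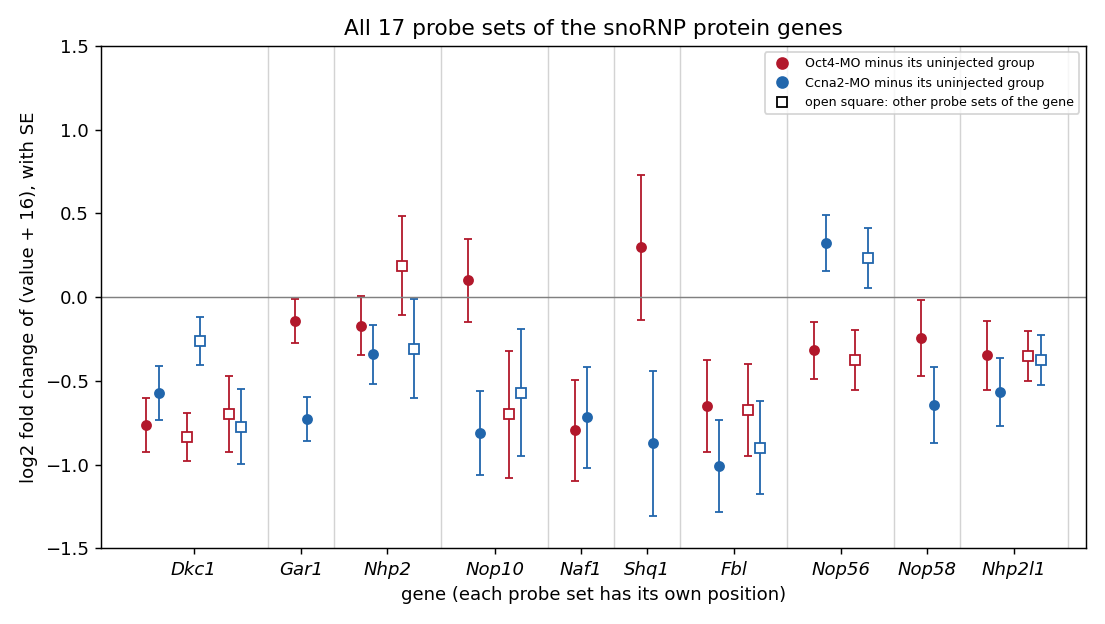
Log2 fold changes (vertical axis, log2 of value + 16, with standard errors) of all 17 probe sets of the 10 genes, in Oct4-MO embryos (red) and in Ccna2-MO embryos (blue). Filled circles are the brightest probe sets and open squares the others; the probe sets of Dkc1, Fbl, Nop56 and Nhp2l1 share their signs, whereas those of Nhp2 and Nop10 differ in sign in Oct4-MO embryos.

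By separation of the groups, 6 of 10 genes were lower in Ccna2-MO embryos without overlap (Dkc1, Gar1, Nhp2, Nop10, Fbl and Nhp2l1), against 9.3% of all genes, and 1 was higher (Nop56), against 9.89%. In Oct4-MO embryos 2 of 10 were lower without overlap (Dkc1 and Naf1), against 9.57% of all genes. These counts hold for the brightest probe sets only, each against the controls of its own experiment. At the other probe sets of Nhp2, Nop10, Nhp2l1 and Nop56, Ccna2-MO embryos overlapped their controls. At the other probe sets of Nhp2l1 and Nop56, Oct4-MO embryos were lower than their controls without overlap. The changes in the knockdowns were also compared with each other. No gene of the 10 passed an adjusted p under 0.05 for the difference, nor did any other gene by its brightest probe set (0% of all genes). At an unadjusted p under 0.05 the change in Oct4-MO embryos was above that in Ccna2-MO embryos for Gar1 and Nop10 (2 of 10, against 3.19% of all genes) and below it for Nop56 (1 of 10, against 3.93%). No single gene of the 10 is thus shown to change differently in the knockdowns.

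The uninjected groups differed from each other as well. In the uninjected embryos of the Oct4 experiment 9 of 10 genes were lower than in those of the Ccna2 experiment, against 47.9% of all genes. The median log2 difference of the 10 was -0.41, where the median of all genes was 0.02. At an unadjusted p under 0.05, 5 of 10 were lower (Gar1, Nhp2, Nop10, Fbl and Nhp2l1), against 5.68% of all genes, and the same 5 did not overlap, against 10.4% of all genes. The count of 5 became 1 without replicate 2 of the uninjected embryos of the Oct4 experiment. It became 3 and 2 without replicates 1 and 2 of those of the Ccna2 experiment. Here too the share of all genes was not counted with arrays left out. With all arrays, none of the 10 passed an adjusted p under 0.05, which 0.116% of all genes did in either direction. The difference was -0.66 for Fbl (standard error 0.27, adjusted p = 0.389) and -0.92 for Nhp2l1 (standard error 0.20, adjusted p = 0.131). At the other probe set of Nhp2l1 it was 0.09 (adjusted p = 0.877), so that the probe sets of this gene did not agree. The other probe sets of Nop10 and Fbl had -0.23 and -0.52, with overlap and an unadjusted p above 0.05 from limma. Those of Nhp2 and Nop56 had -0.67 and -0.42, without overlap and with an unadjusted p under 0.05. At its brightest probe set Nop56 had -0.08. Experiment and any batch cannot be told apart here. In each of Gar1, Nhp2, Nop10, Naf1, Shq1, Fbl, Nop58 and Nhp2l1 the uninjected embryos of the Ccna2 experiment had the highest mean of the 4 groups, and against all 6 uninjected arrays the median of the 10 genes in Ccna2-MO embryos was -0.53.

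In the order of the 4 groups, Dkc1 was lowest in Oct4-MO embryos, at 1489 ± 74.3 against 2556 ± 359 in their controls, and next in Ccna2-MO embryos, at 1717 ± 414 against 2529.9 ± 291 in theirs (SD, 3 pools a group). At this brightest probe set of Dkc1, neither the injected groups (log2 difference 0.18, adjusted p = 0.609) nor the uninjected groups differed from each other beyond their spread. At its second probe set every Oct4-MO pool was below every Ccna2-MO pool. The difference between the changes there was -0.57 (unadjusted p = 0.0148, adjusted p = 0.672 from limma). At the third, the means were 607 ± 66.8 in Oct4-MO embryos and 590 ± 191 in Ccna2-MO embryos, in the other order. Fbl averaged 540.4 ± 126 in Oct4-MO embryos and 859 ± 207 in their controls, and 687 ± 261 in Ccna2-MO embryos and 1354 ± 259 in theirs. Its 3 lower groups overlapped in neighbouring pairs, and only the uninjected embryos of the Ccna2 experiment stood above all other pools. Gar1 averaged 1445 ± 184 in Oct4-MO embryos and 1591 ± 145 in their controls, and 1197 ± 81.0 in Ccna2-MO embryos and 1992 ± 132 in theirs. Nop56 averaged 1968 ± 470 in Oct4-MO embryos and 2413 ± 221 in their controls, and 3209 ± 529 in Ccna2-MO embryos and 2542 ± 145 in theirs, the one gene of the 10 with its highest mean in Ccna2-MO embryos.

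Over the 12 arrays the 10 genes varied together in part. Of the 45 pairs of genes, 42 had a Pearson correlation of log2 values above 0, with a median of 0.57 and a range of -0.32 to 0.87. After the mean of each group was removed the median was 0.34. The lowest correlation was that of Shq1 with Nop56, and that of Gar1 with Nop56 was -0.18. Nhp2 and Nop10 had a correlation of 0.76, and 0.79 within groups. The arrays share their normalization and amplification, and these values are a description without a test. Among 11417 other genes of the upper part of the array, those with the pattern most like Fbl over the 12 arrays were Rpl37a (r = 0.97), a protein of the large ribosomal subunit, Arglu1 (0.95) and Map1lc3b (0.95). Those most like Dkc1 were Mars2 (0.97), the mitochondrial methionyl-tRNA synthetase, Iqgap1 (0.93), a scaffold protein of the cytoskeleton, and Thap4 (0.92).

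The wider pathway was described through 6 lists of genes. In single knockdowns none of their measured genes passed an adjusted p under 0.05 from limma. The counts below are at an unadjusted p under 0.05, at which 5.96% of all genes were lower and 4.66% higher in Oct4-MO embryos, and 8.51% were lower and 8.22% higher in Ccna2-MO embryos. Of the genes that assemble the C/D particle, among them the R2TP complex, 8 of 10 were measured. Their median log2 fold change was -0.40 in Oct4-MO embryos and -0.50 in Ccna2-MO embryos, and at an unadjusted p under 0.05 there were 2 lower and 1 higher in Oct4-MO embryos and 5 lower and 1 higher in Ccna2-MO embryos. The smallest p belonged to Znhit6 in Oct4-MO embryos (-0.83, adjusted p = 0.144) and to Nufip1 in Ccna2-MO embryos (-0.86, adjusted p = 0.089), both of which help to join the C/D proteins. In the mean of both knockdowns Nufip1 fell by 0.85 (adjusted p = 0.0176) and Znhit6 by 0.64 (adjusted p = 0.0319), while Nopchap1, a chaperone of Nop58 in human cells, rose by 0.60 (adjusted p = 0.0291). Nopchap1 had 2628 ± 87.9 in Oct4-MO embryos against 1703 ± 152 in their controls, and 3102 ± 613 in Ccna2-MO embryos against 2079 ± 499.8 in theirs (SD, 3 pools a group), whereas the medians of its list lay below 0.

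All 10 listed partners in the nucleolus and the Cajal body were measured, with medians of -0.23 in Oct4-MO embryos and -0.41 in Ccna2-MO embryos. At an unadjusted p under 0.05, 2 of 10 were lower in Oct4-MO embryos, against 5.96% of all genes, and 3 of 10 in Ccna2-MO embryos, against 8.51%. Nolc1, which binds snoRNPs of both classes, had the smallest p in Oct4-MO embryos (-0.78, adjusted p = 0.158) and fell by 0.63 in the mean of both (adjusted p = 0.0317). Xpo1, an export receptor, had the smallest p in Ccna2-MO embryos (-0.77, adjusted p = 0.0852). Of 6 listed partners of Nhp2l1 in the U4 snRNP and its tri-snRNP, 5 were measured, with medians of -0.61 in Oct4-MO embryos and -0.63 in Ccna2-MO embryos, and 2 and 3 of them were lower at that level. Prpf4, a protein of the U4/U6 snRNP, was 120 ± 17.8 in Oct4-MO embryos against 269.8 ± 35.2 in their controls, and 278 ± 75.5 in Ccna2-MO embryos against 441 ± 133 in theirs (SD, 3 pools a group). It had the smallest p in Oct4-MO embryos (-1.07, adjusted p = 0.211) and fell by 0.85 in the mean of both (adjusted p = 0.049). Prpf8 had the smallest p in Ccna2-MO embryos (-0.85, adjusted p = 0.309).

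The 7 genes listed for the processing of snoRNA ends had medians of -0.27 in Oct4-MO embryos and 0.04 in Ccna2-MO embryos. Below 0 were 6 of 7 in Oct4-MO embryos, against 48.5% of all genes, and 3 of 7 in Ccna2-MO embryos, against 46.8%. Dis3 of the exosome had the smallest p in Oct4-MO embryos (-0.71, adjusted p = 0.507), and Toe1 in Ccna2-MO embryos (-0.68, adjusted p = 0.425). At an unadjusted p under 0.05 there were 1 lower in Oct4-MO embryos and 0 in Ccna2-MO embryos. Of 8 genes of telomerase and its partners, 6 were measured, with medians of 0.20 in Oct4-MO embryos and 0.39 in Ccna2-MO embryos. The smallest p belonged to Tert, the reverse transcriptase (1.05, adjusted p = 0.539), in Oct4-MO embryos, and to Pinx1 (0.76, adjusted p = 0.222) in Ccna2-MO embryos, where it was the 1 gene higher at an unadjusted p under 0.05, against 0 in Oct4-MO embryos. Of 19 host genes of snoRNAs, 16 were measured, and their median was 0.06 in either knockdown, with 4 higher and 0 lower in Oct4-MO embryos at an unadjusted p under 0.05 (4.66% and 5.96% of all genes) and 2 higher and 1 lower in Ccna2-MO embryos (8.22% and 8.51% of all genes). The counts in Ccna2-MO embryos were near these shares. The smallest p was that of Snhg16 in Oct4-MO embryos (1.23, adjusted p = 0.401) and of Ipw in Ccna2-MO embryos (adjusted p = 0.0855). Ipw had 16.03 ± 8.13 in Ccna2-MO embryos against 3.2 ± 2.63 in their controls (SD, 3 pools a group), below the median of the arrays, and no fold is given for it. Snhg8 rose by 0.54 in the mean of both (adjusted p = 0.0426), with 1982 ± 317 in Oct4-MO embryos against 1492 ± 57.6 in their controls, and 1740.2 ± 411 in Ccna2-MO embryos against 1067 ± 126 in theirs (SD, 3 pools a group).

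**Figure D4:**
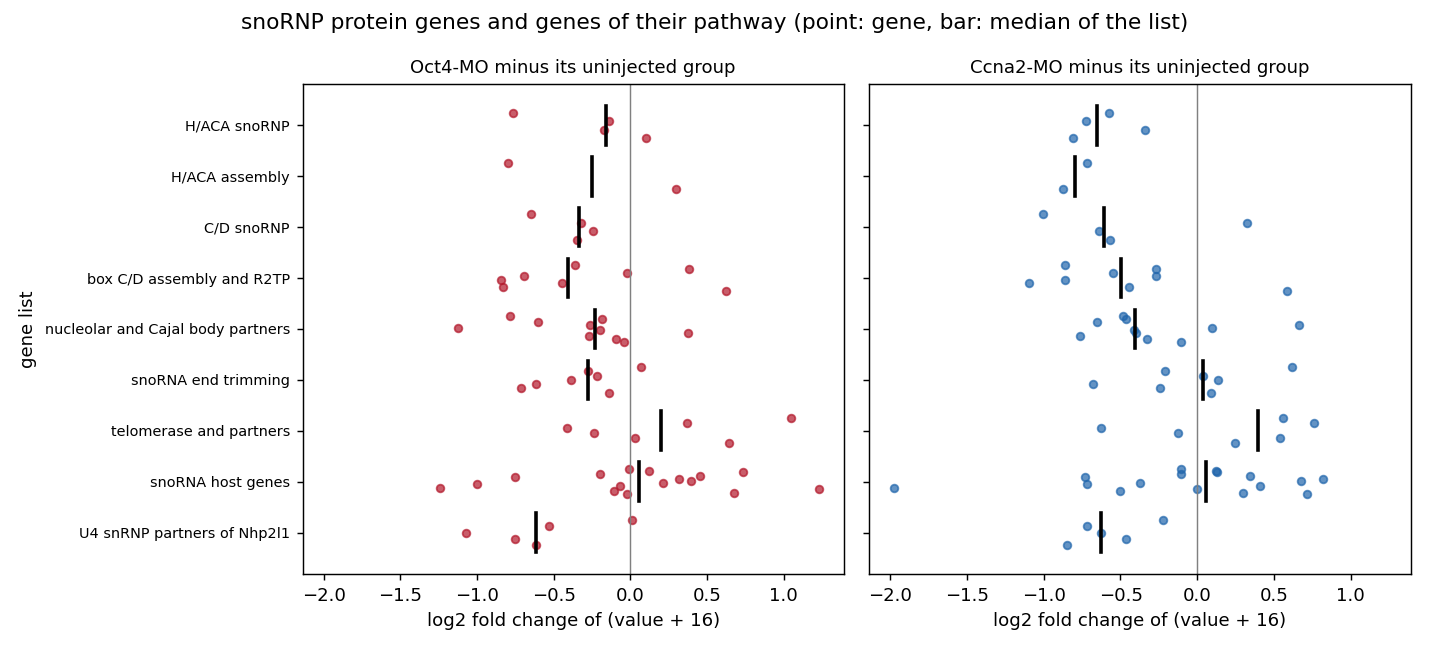
Log2 fold changes (horizontal axis, log2 of value + 16) of the measured genes of the snoRNP proteins and of 6 lists of their pathway, in Oct4-MO embryos (left) and in Ccna2-MO embryos (right), each against its own uninjected group. Points are genes and bars are medians of lists; the medians of the C/D assembly list are -0.40 and -0.50 and those of the snoRNA host genes are 0.06 in both panels.

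Some of these genes carry snoRNAs themselves. In the RefSeq annotation of GRCm38.p6, 5 snoRNA genes lie within Nop56 (among them Snord110 and Snord57), 4 within Nop58 (among them Snord70 and Snord11) and 1 within Dkc1, and 0 within the 7 other genes. Thus 3 of the 10 genes hold a snoRNA gene, against 1.7% of 21900 protein-coding genes. The array measures the mRNA and not the snoRNA within it.

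Promoters from RefSeq (GRCm38.p6) were matched for 8 of the 10 genes, all but Fbl and Naf1. The 250 bases before the start site were searched on both strands for 4 short motifs: the E-box CACGTG, the ETS-type motif CCGGAAG, the CCAAT box CCAAT and the GC box GGGCGG, of which none is contained in another. The ETS-type motif was found in 4 of 8 (Gar1, Nhp2, Shq1 and Nhp2l1), against 6.91% of all 32851 promoters, and the E-box in 0 of 8, against 6.02%. The CCAAT box was found in 2 of 8 (Nhp2 and Nop56), against 33.8%, and the GC box in 5 of 8 (Nhp2, Nhp2l1, Nop56, Nop58 and Shq1), against 32.7%. A gene was counted when any of its promoters matched, while these percentages count each promoter singly. The ETS-type matches are shown with 10 bases on either side, since the share of this motif among these genes was farthest from that among all promoters, and capitals mark the motif or its reverse complement. They start 43 bases before the start site in Gar1 (chr3:129831423-129831449, minus strand), 23 in Nhp2 (chr11:51619740-51619766, plus strand), 31 in Shq1 (chr6:100671172-100671198, minus strand) and 55 in Nhp2l1 (chr15:82047637-82047663, minus strand).
Gar1: cgccgccacaCTTCCGGaaacgtcgcg
Nhp2: acttgaaaacCCGGAAGtgatgtcgga
Shq1: cagggcgggaCTTCCGGcccccacacg
Nhp2l1: gcactctcttCTTCCGGgaagggggcg
Of the genes with a match, Gar1 passed in Ccna2-MO embryos, and Nhp2, Shq1 and Nhp2l1 did not. A match of letters is a description of the sequence and not a site of binding.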

How the data were processed

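Total RNA of 12 pools of embryos was amplified, labelled and hybridised by the authors to Affymetrix mouse genome arrays. The deposited values are intensities on a linear scale, 1 per probe set, which the authors normalized with dChip; no version and no model options of dChip are given in the sources used here. Of 45001 probe sets, 64 controls were left out. The platform annotation gives 1 symbol to 34849 probe sets, several to 928 and none to 9160. Probe sets with several symbols were not named, except those of Nhp2l1.

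Values were analysed as log2(value + 16) in R 4.3.3 with limma 3.58.1. One model with 4 group means was fitted over 12 arrays with an intensity trend. Contrasts set each injected group against its own uninjected group. The mean and the difference of these changes and the uninjected groups were also tested, with Benjamini-Hochberg adjustment over 44937 probe sets. The steps were tested on simulated data.

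The 10 genes, the lists and the tests were chosen with earlier results of these data known. Named are all 10 genes and, from each list, the gene with the smallest p in each knockdown and those that passed. For Fbl and Dkc1 the 3 genes with the highest correlation are given. Motifs were chosen after the values were seen.

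Per the labels, each uninjected pool was taken from the embryos of an injected pool and cultured in parallel with it, and pools of the same number were taken as pairs. After removal of group means, paired arrays correlated at 0.105, 0.0613 and -0.000156 in the Oct4 experiment and at -0.015, 0.111 and 0.15 in the Ccna2 experiment. The labels give 0.6 mM for both morpholinos, from which the methods of the study differ for Ccna2-MO. Depth does not apply to arrays, and the number of arrays limits the precision.

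Alternatives were the pair as a block; the mean over all probe sets of a gene; the methods' t-test; each array left out in turn; array weights; a pseudocount of 1 or 64; quantile normalization; median centring; a fit without the intensity trend; a fit of 6 arrays alone; the 6 uninjected arrays pooled as controls; and the upper 22469 probe sets alone.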

Additional observations from a re-analysis of the deposited data

How the results depend on the processing

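Precision was limited by 3 pools a group and by signal over background, most of all for Shq1. The counts below are of the 10 genes only, and the share of all genes was not counted under these alternatives. With the replicate block of paired pools, 0, 1 and 3 of the 10 genes passed in Oct4-MO embryos, in Ccna2-MO embryos and in the mean of both, as without it, and the block changed no other call; the contrast of uninjected groups could not be fitted with it. In Oct4-MO embryos 1 gene (Dkc1) passed with all 6 uninjected arrays as controls, with array weights and with the mean over all probe sets of a gene. In Ccna2-MO embryos 0 passed with all 6 uninjected arrays as controls and with only the 6 arrays of the comparison. The same held with no intensity trend, with array weights and with the unpaired t-test. In that t-test 5 had an unadjusted p under 0.05. In Oct4-MO embryos the t-test gave 0, and 2 unadjusted. Leaving out 1 array gave 0 to 3 genes in Ccna2-MO embryos and 1 to 4 in the mean of both, where 1 (Dkc1) passed with no intensity trend and 2 (Dkc1 and Gar1) with log2(value + 64). In the mean, Dkc1 passed under 21 of 21 alternatives, Gar1 under 12 and Fbl under 10. The median in Ccna2-MO embryos was -0.53 with all 6 uninjected arrays, and -0.72 to -0.49 with 1 array left out, which gave -0.43 to -0.15 in Oct4-MO embryos. In Oct4-MO embryos the sign turned for Nhp2 with the mean of its probe sets (0.0082), for Nop10 with all 6 uninjected arrays (-0.24) and with the mean of its probe sets (-0.30), and, with 1 array left out, for Nop10 (-0.19 to 0.30) and Shq1 (-0.078 to 0.54). The cause was not tested.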

Other observations

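Zar1, a maternal factor of the oocyte and the one gene among the 2-cell embryo and oocyte markers that passed in a single knockdown, had an intensity of 303 ± 5.92 in Oct4-MO embryos against 73.6 ± 20.2 in uninjected ones, and 392 ± 180.3 in Ccna2-MO embryos against 71.5 ± 34.5 in theirs (SD, 3 pools a group). It rose by 2.19 in log2 units in Ccna2-MO embryos (standard error 0.39, adjusted p = 0.0328 from limma) and had a log2 fold change of 1.85 in Oct4-MO embryos (adjusted p = 0.123). It was singled out after its values were seen.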
